A study of Homo sapiens with 4 samples.

Results

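The 9 genes described here, NRXN3, NLGN1, MDGA2, RIMS2, NALF1, PTPRD, CNTNAP2, CSMD1 and RBFOX1, are very long human genes whose products are best known from neurons and their synapses. They were read in HK-2 cells, an immortalised line from human kidney proximal tubule. The genes were chosen by name, with the RNA sites listed for them already known, so their presence in the lists is the basis of the choice and not a result. They are 9 of 19909 protein-coding genes in GENCODE release 29. Of the sites in the deposited lists, 765 of 166248 in IP 1 (0.460%) and 1123 of 229782 in IP 2 (0.489%) carried the identifier of one of the 9 genes.

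The study took RNA bound to PARP1 by immunoprecipitation with a Flag antibody, and sequenced 2 PARP1 IPs and 2 inputs of HK-2 cells. No control IP stands among the samples, the inputs were not analysed here, and no treatment or time is named for any sample. PARP1 is a nuclear enzyme that binds DNA breaks and RNA and attaches chains of ADP-ribose to proteins. Whether the 2 IPs stem from separate cultures is not stated, so differences between them may be technical.

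Synapses form where adhesion proteins of the sending cell grip partners on the receiving cell. Neurexins reach across the cleft to neuroligins, MDGA proteins cover neuroligins and block that contact, and receptor phosphatases of the LAR family anchor a second set of contacts. Most of these genes consist almost wholly of introns, which are present only in RNA that has not yet been spliced and has usually not left the nucleus.

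A site is a single base at which at least 2 sequenced tags differed from the reference by a substitution, deletion or insertion. Its value is the number of tags over the base and the number that were mutated. In both lists the median site had 2 tags, of which 2 were mutated. Whether a site is a variant in the DNA of the cells was not tested. A sense site lies on the strand from which the gene is read, and an antisense site on the opposite strand. Site density, in sites per 100 kb of the annotated span, is the measure of level used below, with exact 95% Poisson intervals. The sense share is the percentage of a gene's sites that are sense, with exact 95% Clopper-Pearson intervals. Both intervals cover counting error only. In bulk material, RNA from few cells and little RNA in each cell cannot be told apart.

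The background of the lists was measured between annotated genes, where each strand held 1.06 sites per 100 kb in IP 1 and 1.89 in IP 2. The length used there includes assembly gaps. A gene was called sense-biased when it had at least 10 sites and the whole interval of its sense share lay above 50%. The 9 genes fell into 2 sets under that call. NRXN3, NLGN1, MDGA2, RIMS2, NALF1 and PTPRD, 6 of the 9, were sense-biased in both IPs. CNTNAP2, CSMD1 and RBFOX1 were not, although all 9 genes had at least 10 sites in each IP. Among all protein-coding genes with 10 sites in each IP, 2471 of 3036 (81.4%) were sense-biased in both, and among those spanning 500 kb or more, 133 of 228 (58.3%). The count of 6 in 9 is thus near the background of long genes and below that of all genes. In IP 1 alone 7 of the 9 passed, against a background of 87% of 3506 protein-coding genes and 63.8% of 229 long ones. In IP 2 alone 6 passed, against 79% of 4376 and 54.7% of 287. No member was antisense-biased in both IPs, with the whole interval below 50%, against 0.877% of long genes and 0.428% of all. With sites assigned by position and strand in place of the identifier, 6 of the 9 were again sense-biased in both IPs, against 74.6% of all protein-coding genes and 55.4% of long ones.

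**Figure D1:**
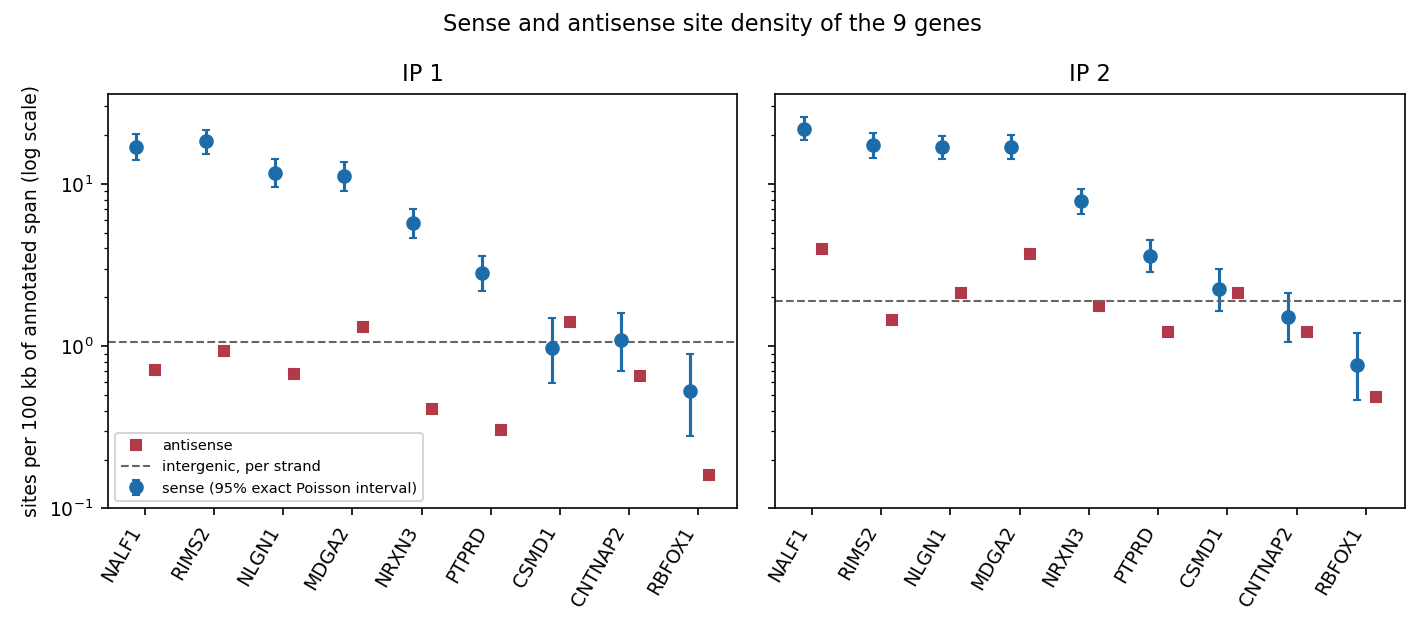
Sense sites (circles with 95% exact Poisson intervals) and antisense sites (squares) per 100 kb of annotated span, on a log scale, for the 9 genes in IP 1 and IP 2. The dashed line is the intergenic level per strand, 1.06 in IP 1 and 1.89 in IP 2, and NALF1, RIMS2, NLGN1, MDGA2, NRXN3 and PTPRD lie above it in both IPs.

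Some markers of the cell type had sense sites, as did most protein-coding genes, whose median density was above 0 in both IPs. Of 20 proximal tubule and kidney epithelium markers, 13 had a sense site in IP 1 and 15 in IP 2, with 86 and 113 sense sites in sum. PAX8, a kidney lineage factor, had 23 and 21, the cadherin gene CDH2 had 30 and 30, and HAVCR1, which encodes the injury marker KIM-1, had 12 and 13. AQP1, SLC5A2 and ANPEP had none in either list. Of 16 neuron markers, 7 and 9 had a sense site, with 37 and 65 in sum. The median was 2.23 and 6.14 sense sites per 100 kb over the tubule and epithelium markers and 0 and 2.52 over the neuron markers. Over all protein-coding genes it was 2.73 and 4.14, so having a sense site does not by itself set these markers apart. MAP2 had 13 and 18 and SNAP25 had 7 and 15, whereas SYP, ELAVL3, NEFM, SYT4 and DCX had none in either IP. Of 9 markers of other kidney cells, 4 and 3 had a sense site, and none had more than 2 in IP 1 or 4 in IP 2. A short gene with few tags can lack sites for want of a mismatch, so 0 sites do not show that a gene was silent. What part other cells have in the members' values was not tested.

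NRXN3 and NLGN1 encode the 2 sides of the classical synaptic contact, a presynaptic neurexin and a postsynaptic neuroligin. NLGN1 (chr3:173396284-174286644, plus strand, 890 kb) had 104 sense and 6 antisense sites in IP 1 and 150 and 19 in IP 2. Its sense share was 94.5% (88.5 to 98.0) and 88.8% (83.0 to 93.1). Its sense density was 11.7 sites per 100 kb (9.54 to 14.2) in IP 1 and 16.8 (14.3 to 19.8) in IP 2. The sense sites ran through the whole gene. Before the annotated start 188.271 kb into the gene the density was 11.7 and 14.9 sites per 100 kb, and after it, up to the start at 879.03 kb, it was 11.9 and 17.1, so the 2 stretches did not differ beyond their intervals.

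NLGN1 had no exonic site in IP 1 and 4 in IP 2, of which 3 were deleted bases in the coding sequence. These are shown because coding bases are the part of a site list that mature messenger RNA could also give. Capitals mark the bases that were deleted, on the sense strand of GRCh38, with 20 bases to either side of the site. The first had 7 tags with 2 mutated, and the others, 2 adjacent bases, had 4 tags with 2 mutated.
NLGN1 chr3:174279560-174279600: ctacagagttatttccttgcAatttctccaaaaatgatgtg
NLGN1 chr3:174280680-174280720: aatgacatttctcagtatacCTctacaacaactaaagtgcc
Neither stretch held a sense site in IP 1.

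NRXN3 (chr14:78170373-79868290, plus strand, 1698 kb) had 97 sense and 7 antisense sites in IP 1 and 133 and 30 in IP 2, and this gave sense shares of 93.3% (86.6 to 97.3) and 81.6% (74.8 to 87.2). The identifier in the lists did not cover the whole gene. The first sense site with the identifier lay 241 kb from the annotated 5′ end in IP 1 and 239 kb in IP 2, close behind the start annotated at 233.358 kb. By position and strand the upstream 233.358 kb held another 32 sense sites against 1 antisense site in IP 1, and 58 against 3 in IP 2. Of these sense sites, 30 in IP 1 and 58 in IP 2 were listed as intergenic. These make up the stretch where NRXN3 was densest, with 13.7 sense sites per 100 kb (9.38 to 19.4) in IP 1 and 24.9 (18.9 to 32.1) in IP 2. The rest of the gene had 6.62 (5.37 to 8.08) and 9.08 (7.60 to 10.8), and the intervals of the 2 stretches did not overlap in either IP. Counted by position, NRXN3 had 129 sense and 8 antisense sites in IP 1 and 191 and 34 in IP 2, or 7.60 and 11.2 sense sites per 100 kb in place of 5.71 and 7.83. The boundaries used for NRXN3, RBFOX1, PTPRD and MDGA2 were chosen after the positions had been seen.

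The next member works against the neuroligin contact. MDGA2 (chr14:46840092-47674954, minus strand, 835 kb) encodes a membrane-anchored protein that binds neuroligins and keeps neurexins off them. It had 93 sense and 11 antisense sites in IP 1 and 141 and 31 in IP 2. Its sense share was 89.4% (81.9 to 94.6) and 82.0% (75.4 to 87.4), and its density 11.1 (8.99 to 13.6) and 16.9 (14.2 to 19.9) sense sites per 100 kb. Its sites crowded towards the 5′ end. Of its sense sites, 72.0% (61.8 to 80.9) in IP 1 and 77.3% (69.5 to 83.9) in IP 2 lay in the upstream 50% of the span, and MDGA2 was the only member whose interval lay above 50% in both IPs. Among long genes with at least 10 sense sites in each IP, 22 of 190 (11.6%) did so. Before the start annotated at 331.72 kb the density was 18.4 (14.1 to 23.6) and 29.2 (23.7 to 35.7) sites per 100 kb, and after it 6.36 (4.35 to 8.98) and 8.75 (6.35 to 11.7).

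MDGA2 also shared more sites between the IPs than any other member. At the same base and strand, 13 of its sense sites stood in both lists, which is 14.0% of those in IP 1 and 9.22% of those in IP 2, and with sites within 500 bases taken as 1 locus there were 9 such loci. Among them were 4 adjacent deleted bases about 1.32 kb from the 5′ end, with 5 tags in IP 1 and 3 in IP 2, of which 2 were mutated in IP 1. A substituted base in the 3′ UTR at chr14:46840676 had 3 of 6 tags mutated in IP 1 and 2 of 2 in IP 2. MDGA2 had 1 coding site, a substitution in IP 2 with 2 of 2 tags mutated, printed here with the substituted base of the reference in capitals.
MDGA2 chr14:47097078-47097118: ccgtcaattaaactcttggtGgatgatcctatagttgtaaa

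RIMS2 belongs to the release side, where RIM proteins hold vesicles and calcium channels at the presynaptic membrane. RIMS2 (chr8:103500748-104256094, plus strand, 755 kb) had 138 sense and 7 antisense sites in IP 1 and 131 and 11 in IP 2. Its sense share, 95.2% (90.3 to 98.0) and 92.3% (86.6 to 96.1), was above 90% in both IPs, as in no other member. Its density was 18.3 (15.3 to 21.6) and 17.3 (14.5 to 20.6) sense sites per 100 kb. RIMS2 was the only member with fewer sense sites in IP 2 than in IP 1, in a list with more sites in all. Sense sites of RIMS2 reached 11 tags, and 24 in IP 1 and 19 in IP 2 had 3 or more mutated tags. Its upstream 318.472 kb, before the second annotated start, held 23.9 (18.8 to 29.9) and 21.0 (16.3 to 26.7) sense sites per 100 kb. RIMS2 had 5 exonic sense sites over the 2 IPs, none of them at the same base in both, of which 1 in IP 1 and 2 in IP 2 lay in coding sequence.

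NALF1, formerly FAM155A, encodes an auxiliary subunit of NALCN, the sodium leak channel that sets the resting potential of neurons. NALF1 (chr13:107163510-107866735, minus strand, 703 kb) had 119 sense and 5 antisense sites in IP 1 and 154 and 28 in IP 2. Its sense share was 96.0% (90.8 to 98.7) and 84.6% (78.5 to 89.5), and its density 16.9 (14.0 to 20.2) and 21.9 (18.6 to 25.6) sense sites per 100 kb. The base with the most mutated tags at a shared site was in a NALF1 intron, at chr13:107694158, where 7 of 7 tags were mutated in both IPs. That was the only one of the 31 shared sense sites of the 9 genes with 3 or more mutated tags in each list. NALF1 had 2 exonic sense sites in IP 1 and 5 in IP 2, all in its 3′ UTR. Most of those in IP 2 were adjacent deleted bases. The antisense sites of NALF1 numbered 5 in IP 1 and 28 in IP 2, where they fell into 15 loci.

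PTPRD encodes a receptor phosphatase of the LAR family, a presynaptic organiser that binds postsynaptic partners such as IL1RAPL1. PTPRD (chr9:8314246-10612723, minus strand, 2298 kb) had 65 sense and 7 antisense sites in IP 1 and 83 and 28 in IP 2, with sense shares of 90.3% (81.0 to 96.0) and 74.8% (65.6 to 82.5). Its density over the whole span was 2.83 (2.18 to 3.60) and 3.61 (2.88 to 4.48) sense sites per 100 kb. This was the lowest among the sense-biased members, though above the medians of the other long genes, 1.39 and 2.55. The average over the span hid a step, seen with sites counted by position and strand. Before the start annotated 1754.95 kb into the gene, PTPRD had 13 sense and 5 antisense sites in IP 1 and 29 and 26 in IP 2, or 0.741 (0.394 to 1.27) and 1.65 (1.11 to 2.37) sense sites per 100 kb, and both intervals held the intergenic level of their list. After it, in the last 543.531 kb, it had 52 sense and 2 antisense sites in IP 1 and 54 and 4 in IP 2, or 9.57 (7.15 to 12.5) and 9.94 (7.46 to 13.0) per 100 kb. The sense share there was 96.3% (87.3 to 99.5) and 93.1% (83.3 to 98.1), against 72.2% (46.5 to 90.3) and 52.7% (38.8 to 66.3) upstream.

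PTPRD was the only member with fewer sense sites in the upstream 50% of its span than downstream by the interval in both IPs, with 13.8% (6.53 to 24.7) and 28.9% (19.5 to 39.9) upstream, as 21 of 190 long genes (11.1%) did. In single IPs, the interval lay above 50% for MDGA2, NALF1 and RIMS2 in IP 1, against 20.7% of long genes, and for MDGA2 in IP 2, against 17.1%, and below 50% for PTPRD in each, against 15% and 12.4%. Its densest stretch was the 123.827 kb that follow the start at 1754.95 kb, with 23 sense and 0 antisense sites in IP 1 and 25 and 2 in IP 2. These made 18.6 (11.8 to 27.9) and 20.2 (13.1 to 29.8) sense sites per 100 kb, a level that overlapped those of RIMS2 and NALF1 over their whole spans. All 5 shared sense sites of PTPRD lay 1733 kb or more from the 5′ end. Its 1 coding site, a deletion in IP 1 with 2 of 4 tags mutated, is printed with the deleted base in capitals.
PTPRD chr9:8465572-8465612: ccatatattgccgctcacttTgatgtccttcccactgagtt

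Of 3 PTPRD and 2 MDGA2 promoters in the RefSeq table, 3 are printed because the sites stand differently to them. Sequences are from RefSeq on GRCh38.p14 and run from 250 bases before to 50 bases after a transcript start, with each CG in capitals. CG reads the same on both strands, 96.0% of 35116 promoters of this length hold at least 1, and the median is 14.
PTPRD chr9:10612953-10613252: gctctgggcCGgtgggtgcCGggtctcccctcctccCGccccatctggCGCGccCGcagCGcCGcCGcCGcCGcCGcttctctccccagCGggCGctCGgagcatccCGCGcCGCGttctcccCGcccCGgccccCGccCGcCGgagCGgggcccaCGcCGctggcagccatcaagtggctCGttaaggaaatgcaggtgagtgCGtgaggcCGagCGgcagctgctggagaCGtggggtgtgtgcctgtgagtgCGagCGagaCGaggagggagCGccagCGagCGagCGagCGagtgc
PTPRD chr9:8779342-8779641: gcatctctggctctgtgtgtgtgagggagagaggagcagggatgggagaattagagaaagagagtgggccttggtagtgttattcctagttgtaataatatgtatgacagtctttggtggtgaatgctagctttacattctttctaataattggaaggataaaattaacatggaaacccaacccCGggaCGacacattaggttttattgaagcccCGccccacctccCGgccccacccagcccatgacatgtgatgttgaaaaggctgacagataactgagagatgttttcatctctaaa
MDGA2 chr14:47675556-47675855: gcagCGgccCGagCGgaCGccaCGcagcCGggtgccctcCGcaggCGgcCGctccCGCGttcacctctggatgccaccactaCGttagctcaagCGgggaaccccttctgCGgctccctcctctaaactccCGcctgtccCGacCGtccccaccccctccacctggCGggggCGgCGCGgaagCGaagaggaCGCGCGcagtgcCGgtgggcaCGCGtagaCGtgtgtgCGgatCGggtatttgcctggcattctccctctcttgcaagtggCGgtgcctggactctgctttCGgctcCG
The upstream PTPRD promoter holds 40 CG, a number that 7.61% of promoters reach, and the 50 kb after it held 0 sense sites in both IPs. The PTPRD promoter printed next, 1833.33 kb from the annotated 5′ end, holds 4 CG. In the 50 kb before it stood 15 and 19 sense sites, IP 1 first, and in the 50 kb after it 2 and 2. The last 170.014 kb of PTPRD, farther downstream, again held 19 and 20 sense sites, or 11.2 and 11.8 per 100 kb. The PTPRD promoter at 1878.78 kb, not printed, holds 7 CG, with 3 and 2 sense sites in the 50 kb before it and 1 and 1 after it. The MDGA2 promoter at the 5′ end holds 34 CG. The 50 kb before it held 0 and 1 sense sites and the 50 kb after it 12 and 18. The other MDGA2 promoter, at 331.708 kb and not printed, holds 4 CG, with 8 and 14 sense sites in the 50 kb before it and 5 and 7 after it.

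**Figure D2:**
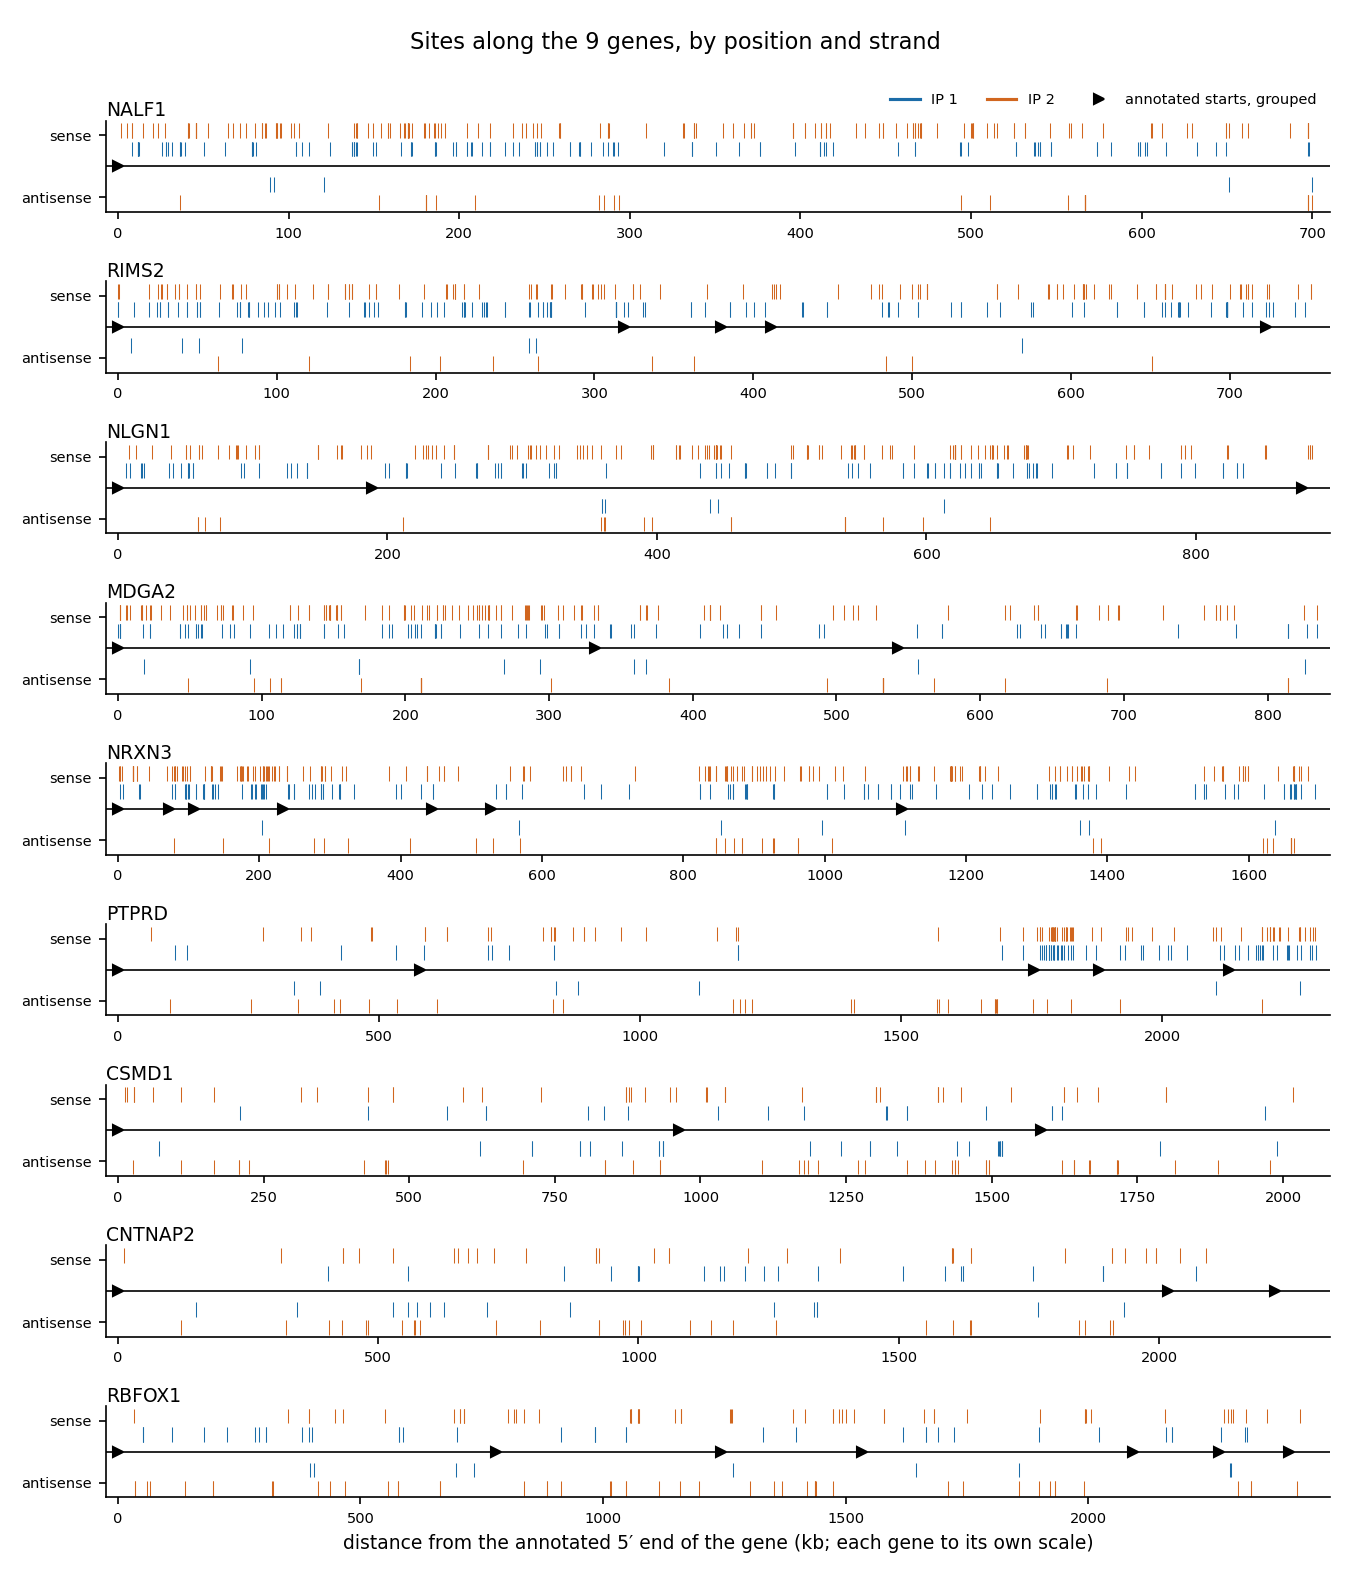
Sites along each of the 9 genes by distance in kb from the annotated 5′ end, each gene to its own scale, with sense sites above the line and antisense sites below it, IP 1 in blue and IP 2 in orange. Triangles mark annotated starts, grouped within 20 kb. Sense sites of PTPRD crowd beyond 1754.95 kb and those of MDGA2 before 331.72 kb, while the marks of CSMD1 are spread alike on both strands.

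In CNTNAP2, CSMD1 and RBFOX1 the sense density stood near the intergenic level. CNTNAP2 encodes a neurexin-like protein that clusters potassium channels on axons. CNTNAP2 (chr7:146116002-148420998, plus strand, 2305 kb) had 25 sense and 15 antisense sites in IP 1 and 35 and 28 in IP 2. Its sense share was 62.5% (45.8 to 77.3) and 55.6% (42.5 to 68.1), and its density 1.08 (0.702 to 1.60) and 1.52 (1.06 to 2.11) sense sites per 100 kb, both intervals holding the intergenic level. No sense site of CNTNAP2 lay within 404 kb of its 5′ end in IP 1, and the nearest in IP 2 was at 11.2 kb.

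CSMD1 encodes a large membrane protein with complement control domains, a regulator of complement in the brain. CSMD1 (chr8:2935353-4994972, minus strand, 2060 kb) had 20 sense and 29 antisense sites in IP 1 and 46 and 44 in IP 2. It was the only member with more antisense than sense sites in an IP, at a sense share of 40.8% (27.0 to 55.8) in IP 1 and 51.1% (40.3 to 61.8) in IP 2. Its density, 0.971 (0.593 to 1.50) and 2.23 (1.64 to 2.98) sense sites per 100 kb, also held the intergenic level in both.

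RBFOX1 encodes a splicing factor that regulates neuronal exons, and is the only one of the 9 whose product acts in the nucleus. RBFOX1 (chr16:5239802-7713338, plus strand, 2474 kb) had 13 sense and 4 antisense sites with its identifier in IP 1 and 19 and 12 in IP 2, with sense shares of 76.5% (50.1 to 93.2) and 61.3% (42.2 to 78.2). RBFOX1 therefore passed the call in IP 1 and missed it in IP 2. The identifier covered only the last 939.53 kb. The upstream 1534.01 kb carried another identifier, which GENCODE release 29 does not hold, with 25 sense and 5 antisense sites in IP 1 and 40 and 37 in IP 2. Counted over the whole span, RBFOX1 had 38 sense and 9 antisense sites in IP 1, a sense share of 80.9% (66.7 to 90.9), and 59 and 49 in IP 2, a share of 54.6% (44.8 to 64.2). The density by position was 1.54 (1.09 to 2.11) and 2.39 (1.82 to 3.08) sense sites per 100 kb, against 1.06 and 1.89 between genes, so the interval lay just above the intergenic level in IP 1 and held it in IP 2.

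By the identifier counts, the order of the 9 genes by sense density had the same steps in both IPs near the top. RIMS2, NALF1, NLGN1 and MDGA2 came first, NRXN3 followed with an interval apart from theirs, and PTPRD followed NRXN3 with an interval apart again. Counted by position, the interval of NRXN3 in IP 1, 7.60 (6.34 to 9.03), overlapped that of MDGA2, 11.1 (8.99 to 13.6), so that step held in IP 2 and not in IP 1. Neighbours in the order among the first 4 had overlapping intervals in each IP. In IP 1 PTPRD stood apart from CNTNAP2, CSMD1 and RBFOX1, while in IP 2 its interval overlapped that of CSMD1. CNTNAP2 and CSMD1 also overlapped in both IPs. The median over the 9 genes was 5.71 sense sites per 100 kb in IP 1 and 7.83 in IP 2. For the 308 other protein-coding genes of 500 kb or more the medians were 1.39 and 2.55, and for all protein-coding genes 2.73 and 4.14. Because the 9 were chosen with their sites known, these medians stand as a description.

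**Figure D3:**
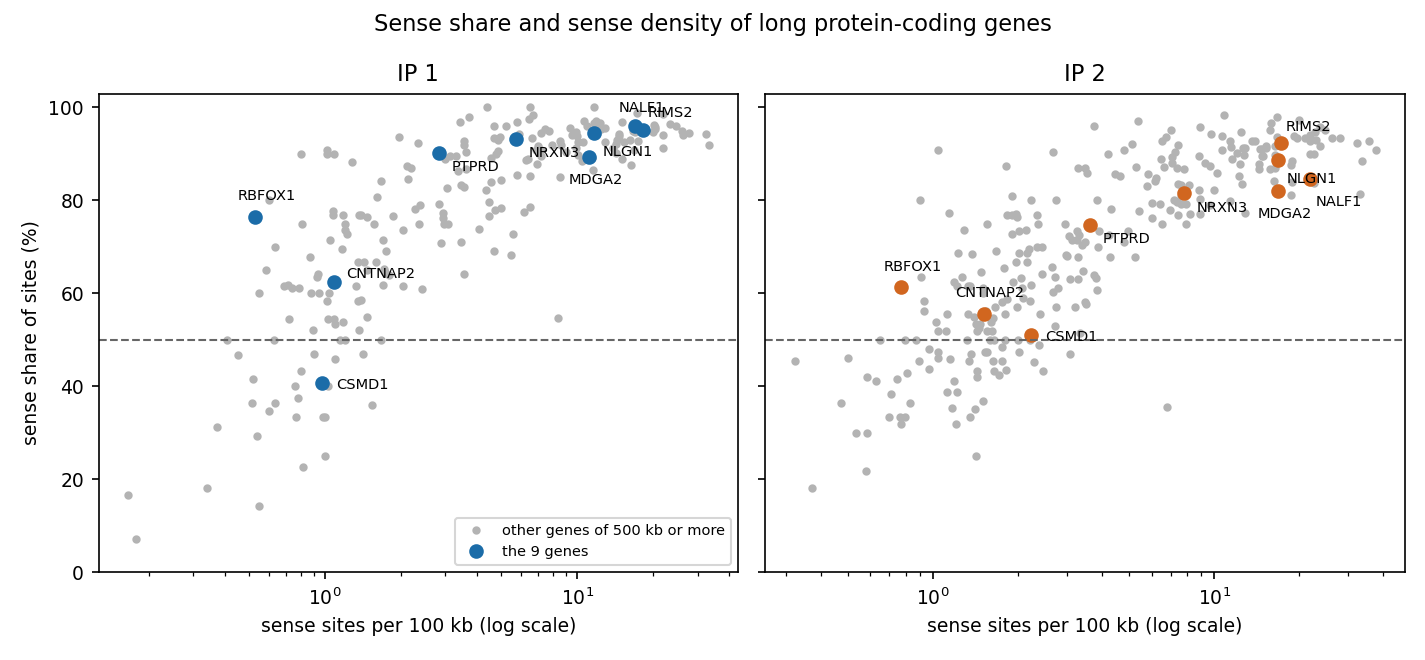
Sense share of sites (%) against sense sites per 100 kb (log scale) for protein-coding genes of 500 kb or more with at least 10 sites, in IP 1 and IP 2, with the 9 genes coloured and named. The dashed line marks 50%, around which CSMD1 and CNTNAP2 lie in IP 2 at 51.1% and 55.6%, while RIMS2 lies at 92.3%.

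Pooled over sites, the 6 sense-biased genes and the other 3 also differed in kind of mutation. Deletions and insertions were 200 of 616 sense sites (32.5%, 28.8 to 36.3) in IP 1 and 289 of 792 (36.5%, 33.1 to 40.0) in IP 2 for NRXN3, NLGN1, MDGA2, RIMS2, NALF1 and PTPRD together. For CNTNAP2, CSMD1 and RBFOX1 they were 5 of 58 (8.62%, 2.86 to 19.0) and 6 of 100 (6%, 2.23 to 12.6). The intervals of the 2 pooled sets did not overlap in either IP, but single genes did. PTPRD, with 15.4% (7.63 to 26.5) in IP 1, stood level with RBFOX1 at 15.4% (1.92 to 45.4) and near CNTNAP2 at 12% (2.55 to 31.2), and CSMD1 was lowest with 0% in IP 1. In IP 2 the 3 genes ran from 0% in RBFOX1 over 2.17% in CSMD1 to 14.3% in CNTNAP2. Over all genes the same share was 31.2% and 31.8% of sense sites and 19.6% and 18.5% of antisense sites. The members' own antisense sites in IP 2 followed that contrast in some genes only. Deletions and insertions were 21 of 31 in MDGA2 (67.7%), 16 of 28 in NALF1 (57.1%), 47.4% in NLGN1 and 36.7% in NRXN3. These lay above the same genes' sense sites, as did CSMD1, with 9.09% against 2.17%. The antisense sites were lower in RIMS2 (18.2% against 43.5%), PTPRD (3.57% against 25.3%) and CNTNAP2 (10.7% against 14.3%). RBFOX1 had 0% on both strands. In IP 1 the 9 genes together had 12.1% of antisense and 30.4% of sense sites. Among sense sites of the 6 genes, the share ran from 15.4% in PTPRD to 39.9% in RIMS2 in IP 1. In IP 2 it ran from 24.8% in NRXN3 to 43.5% in RIMS2. Sites of a gene are neither separate samples nor always separate events, since adjacent deleted bases are listed one by one.

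Depth at the sites followed the same line. Of the sense sites of the 6 genes, 147 in IP 1 and 202 in IP 2 had more than 2 tags, with a maximum of 11 tags over a site. Those with 3 or more mutated tags were 60 (9.74%) and 97 (12.2%), near the 10.2% and 11.1% of all sense sites in the lists. In CNTNAP2, CSMD1 and RBFOX1 every sense site with the gene's identifier, 58 in IP 1 and 100 in IP 2, had 2 tags, both mutated. A count of 0 sites with 3 or more mutated tags allows a share of up to 6.16% in IP 1 and 3.62% in IP 2 by the Clopper-Pearson interval. Among sites with 3 or more mutated tags, MDGA2 had 12 sense and 0 antisense in IP 1 and 26 and 0 in IP 2, NALF1 17 and 0 and then 20 and 0, and NLGN1 4 and 0 and then 16 and 1. CNTNAP2 in IP 1, and CSMD1 and RBFOX1 in IP 2, each had 0 sense and 1 antisense.

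Nearly all sites were intronic. Of the sense sites with a member's identifier, 10 of 674 (1.48%) in IP 1 and 13 of 892 (1.46%) in IP 2 lay in exons by the lists' own classes, against 10.0% and 9.34% of all sense sites. All 23 were in the 6 sense-biased genes. Exons made up between 0.409% of the span, in RBFOX1, and 1.80%, in RIMS2. Per length of annotated exon, MDGA2 had 38.7 sense sites per 100 kb in both IPs (7.98 to 113), against 10.9 and 16.7 per 100 kb of its introns, so the exons were not distinguishable from the introns at these counts. In IP 2 NLGN1 had 39.4 (10.7 to 101) in exons against 16.6 in introns, and in IP 1 it had 0 (up to 36.4) against 11.8. NALF1 had 23.5 (2.85 to 85.0) and 58.8 (19.1 to 137) in exons against 16.8 and 21.4 in introns. Most of its exonic sites in IP 2 were adjacent deleted bases, chr13:107169420 to 107169423, which the interval counts one by one. RIMS2 had 29.4 and 14.7 in exons against 18.1 and 17.4, and PTPRD 17.9 and 8.96 against 2.75 and 3.58. NRXN3 had 6.44 and 0 against 7.61 and 11.4.

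Few sites recurred at the same base. Of the sense sites of the 9 genes, 31 stood in both lists, 4.60% of those in IP 1 and 3.48% of those in IP 2, and the 308 other long genes shared 476, or 4.55% and 3.45%. MDGA2 had 13 of the 31, NRXN3 6, PTPRD 5, RIMS2 3, NALF1 3 and CSMD1 1. NLGN1, with 104 and 150 sense sites, shared none, nor did CNTNAP2 or RBFOX1. At least 1 shared sense site was found in 6 of the 9 genes, against 55.3% of long genes with 10 sites in each IP. NALF1 and NLGN1 each had 1 antisense site in common between the IPs.

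The families around the 9 genes gave uneven values. NRXN2, a shorter neurexin gene of 117 kb, had no site in either list. Of the neuroligins, NLGN3 had 3 and 1 sense sites and NLGN4X had 2 and 1, far fewer than the 104 and 150 of NLGN1, while the short NLGN2 had 5 and 11. MDGA1, the relative of MDGA2, had 6 and 21. RIMS1 (516 kb) had 5 and 3 sense sites, or 0.968 and 0.581 per 100 kb, against 18.3 and 17.3 for RIMS2. NALCN, the channel that NALF1 serves, had 12 sense sites in each IP, against 1 antisense site in IP 1 and 13 in IP 2. The other LAR phosphatases were sense-biased in both IPs. PTPRF had 40 and 43 sense sites, or 40.6 and 43.7 per 100 kb. PTPRS had 36 and 35, or 19.7 and 19.2 per 100 kb, against 2.83 and 3.61 for PTPRD. CSMD3, like CSMD1, had a sense share whose interval held 50% in both IPs, at 6 sense against 2 antisense sites and then 17 against 14. CNTNAP5 had 8 against 9 and then 16 against 16.

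A wider list of 80 other synaptic genes, drawn up with earlier results of these lists known, had a median of 0.965 sense sites per 100 kb in IP 1 and 1.69 in IP 2. Of the 40 with at least 10 sites in each IP, 12 were sense-biased in both, against 81.4% of all protein-coding genes, and 2, GRM5 and GRIK1, were antisense-biased in both, against 0.428%. Of the 43 that span 500 kb or more, 30 had enough sites and 8 were sense-biased, against 58.3% of long genes. The 6 with the highest mean density were NLGN2, PTPRF, SHANK1, MDGA1, PTPRS and ASTN2. ASTN2, at 990 kb the only long one, had 162 and 186 sense sites, or 16.4 and 18.8 per 100 kb. The 3 long genes with the lowest values were DLGAP2, IL1RAPL2 with 2 and 6 sense sites, and TENM1 with 2 and 2. DLGAP2 had no listed site, but neither did the 500 kb on its higher-coordinate side in either IP, so its 0 is not read as a level of the gene. The medians of the 43 long synaptic genes were 0.892 and 1.47. By identifier, each of the 6 sense-biased members lay above them in the same IP, as did CNTNAP2 and CSMD1, while RBFOX1 lay below. The members were chosen with their sites known, so this stands as a description.

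A set of 20 genes at common fragile sites, which are very long but not chosen for synapses, stood closer to the members. Their medians were 5.08 and 6.33 sense sites per 100 kb. Of the 19 with enough sites, 16 were sense-biased in both IPs, against 81.4% of all protein-coding genes and 58.3% of long ones. WWOX had 362 and 418 sense sites, or 32.5 and 37.5 per 100 kb, more than any of the 9 genes, followed by RORA with 14.6 and 21.1 and RAD51B with 14.6 and 18.9.

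**Figure D4:**
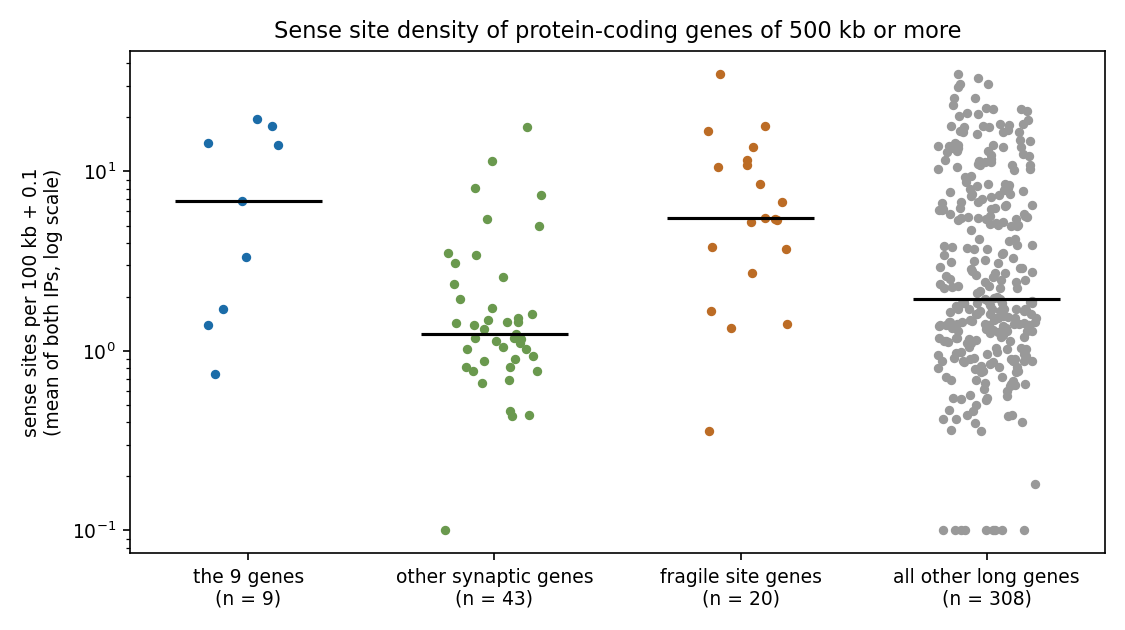
Sense sites per 100 kb (mean of both IPs, plus 0.1, log scale) for protein-coding genes of 500 kb or more, 1 point a gene and a bar at the median. The 9 genes have a median of 6.77 before the 0.1 was added, and the 308 other long genes, which include the 43 synaptic and 20 fragile site genes, 1.84.

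The long gene most like each member was found by the distance over 4 values, the log2 sense density and the sense share in each IP, among 228 long genes. The closest was SDK1 to NLGN1, a cell adhesion gene with 125 sense and 10 antisense sites in IP 1 and 159 and 18 in IP 2. Nearest to NRXN3 was SCAPER, to MDGA2 CEP112, to RIMS2 KALRN, to NALF1 the fragile site gene RAD51B, and to PTPRD HDAC9. Nearest to CNTNAP2 was DLGAP1 with 9 sense and 5 antisense sites and then 16 and 12, to CSMD1 CNTNAP5, and to RBFOX1 NKAIN3 with 7 and 4 and then 7 and 5. The RBFOX1 match was the loosest, at a distance of 0.814, against 0.147 for NLGN1 and SDK1. The densities were identifier counts over the whole span, which run low for NRXN3 and RBFOX1.

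The 2 IPs differed in ways that touch these values. IP 2 had more sites, and a larger share of them lay between genes, 26.3% against 21.1% in IP 1, or antisense, 12.3% against 9.71%. The sense share was lower in IP 2 than in IP 1 in 8 of the 9 genes, CSMD1 being the exception. Whether the library or the cells account for this was not tested.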

How the data were processed

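The 2 PARP1 IPs of HK-2 cells were analysed. Per the labels' protocols, lysates met beads carrying a Flag antibody. TopHat2, bcl2fastq and build GRCh38 are named per the submitters' processing notes. The site caller and all versions were not given in the sources used here. Deposited lists give, per the file headers, whole-number counts of tags and of mutated tags at each base, an FDR (a q-value), a score equal to the mutated tags, a region class and a gene identifier.

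Sites were counted per gene, strand and IP over GENCODE release 29 spans, by identifier and, where stated, by position, with Python 3.11.15 and scipy 1.17.1. No test between groups was made, since inputs were not analysed here. The call and the intervals were tested on simulated counts, while the assignment of sites to genes was not. The tags over listed sites, 419675 in IP 1 and 572870 in IP 2, are not the libraries' depth. Promoters came from RefSeq (GRCh38.p14) and coding windows from GENCODE transcripts.

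Members, lists and splits were chosen with earlier results of these data known. Named are all 9 members, the 6 synaptic genes with the most and the 3 long ones with the fewest sense sites per 100 kb, the 3 densest fragile site genes, and each member's nearest gene; relatives were listed by family, and markers and antisense-biased genes were named after their values were seen. Some genes of these lists are not reported here.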

Additional observations from a re-analysis of the deposited data

How the results depend on the processing

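Alternatives were run on the 9 genes for each summary value. With sites of 3 or more mutated tags only, 3 members (MDGA2, RIMS2 and NALF1) were sense-biased in both IPs in place of 6. NRXN3, NLGN1 and PTPRD fell below the minimum of 10 sites in IP 1, with 1, 4 and 2 sense sites and 0 antisense. In IP 2 they had 10, 16 and 6 sense against 0, 1 and 0 antisense sites. The median sense share was 100% in place of 85.7%, and 1 sense site was shared in place of 31. The median density was 0.324 sense sites per 100 kb in place of 6.77. The median density was 1.97 with only FDR values under each list's most common value, 5.12 with substitutions only, 1.65 with deletions and insertions only, 5.12 with sites within 500 bases as 1 locus and 9.42 by position. The count of members stayed at 6 under those 5 settings, without sites in other genes, and with at least 20 sites, a minimum chosen after seeing the data. That minimum called 1211 protein-coding genes in place of 2471. A higher minimum leaves fewer genes to test, and neither that number nor the share called is given. Apart from counting by position, no share of all genes is given for the settings above. The median upstream share was 50.8%, and 53.0% with substitutions only. It was 35.9% in a shorter upstream window, 1 of 3 equal parts of the span. Leaving out each IP gave 6 to 7 members, a median sense share of 81.6 to 90.3%, a median density of 5.71 to 7.83 and a median upstream share of 50.4 to 53.3%. RBFOX1 was called from IP 1 alone. Leaving out an IP gave no value for shared sites. The description of bases around shared sites was not run, as no genome was used here. No paired analysis was possible because the lists hold no values of the inputs. Sites of 2 tags limit precision, and transcripts without mismatches are not seen.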
